A study of Mus musculus with 6 samples.

Results

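The genes described here are 9 cathepsins, the main proteases of the lysosome, and Cst3, which encodes cystatin C, an inhibitor of the cysteine cathepsins. The 10 genes were picked by symbol and matched to the identifiers in the count tables, and all 10 were found among the 54752 genes listed. Of the cathepsins, 7 are cysteine proteases (Ctsb, Ctsc, Ctsh, Ctsk, Ctsl, Ctss and Ctsz) and 2 are aspartic proteases (Ctsd and Ctse). RNA came from the right hippocampus of wild-type male C57BL/6 mice (C57BL/6 J in the methods of the study), labelled with a time of 14 weeks. There were 3 BCAS mice and 3 sham mice, with 1 library per mouse. BCAS mice underwent bilateral carotid artery stenosis, with a microcoil of 0.16 mm inner diameter around the right common carotid artery and one of 0.18 mm around the left, and the tissue was taken 3 weeks later. Sham mice had the same surgery without coils and no other treatment. The hippocampus studied is therefore the one on the side of the narrower coil, and the other side was not analysed here.

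Cathepsins are made as inactive precursors, marked with mannose 6-phosphate in the Golgi and carried to the lysosome, where the acidic lumen activates them. Cysteine and aspartic cathepsins differ in the residue that cuts the peptide bond. Cystatin C is secreted and blocks papain-like cysteine cathepsins but not the aspartic ones. In the brain, cathepsin S is known as an enzyme of microglia and macrophages, cathepsins B, D and L are made by neurons and glia alike, and cystatin C is abundant in astrocytes and choroid plexus.

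Each library held 29652456 to 35607098 counts. CPM, the counts of a gene relative to the library total, used totals scaled by TMM, and levels of different genes are compared only as CPM per kilobase of gene model. A gene passed the test at an adjusted P under 0.05 in edgeR's quasi-likelihood test over 18617 genes, and DEGs also needed an absolute log2 fold change above 1. In whole tissue, more cells of a type and more RNA per cell cannot be told apart. The 10 microglia and macrophage markers listed for comparison (Aif1, C1qa, C1qb, Csf1r, Cx3cr1, Fcrls, Itgam, P2ry12, Tmem119 and Trem2) were all detected in sham mice and all passed the test as higher in BCAS mice. Their summed level ran from 310.8 to 332 CPM among sham mice and from 2223 to 3597 CPM among BCAS mice. Of 11 neuron markers, 9 passed as lower, against 13.2% of all tested genes, and of 8 astrocyte markers, 7 passed as higher, against 18.0% of all tested genes. Those that passed as higher also included 4 of 5 endothelial markers, 3 of 5 border macrophage markers and 2 of the 3 tested among 7 neutrophil and monocyte markers (Ccr2 and Ly6c2, the latter entering the test only through its BCAS counts), while the 6 oligodendrocyte markers had adjusted P of 0.101 to 0.875 in edgeR. The border macrophage markers summed to between 8.23 and 11.3 CPM among sham mice and between 18.6 and 24.7 CPM among BCAS mice, and the neutrophil and monocyte markers to between 0.928 and 2.07 CPM and between 5.11 and 10.2 CPM, with Ly6g at 0 counts throughout. The part of these shifts in the results below was not tested.

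All 9 cathepsins were higher in BCAS mice and passed the test, and 8 of them were DEGs. Ctse entered the test only through its BCAS counts and so had to differ. Of the other 8 cathepsins, all passed and 7 were DEGs. Cst3 also rose and was a DEG. Over all tested genes, 18.0% passed as higher, 8.47% were up-regulated DEGs and 25.3% had BCAS values all above the sham values. For none of the 10 genes did the groups overlap. The median log2 fold change of the 9 cathepsins was 2.72, and that of the 8 without Ctse 2.47, against 0.018 over all tested genes. All 10 genes had their highest CPM in BCAS mouse 3.

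**Figure D1:**
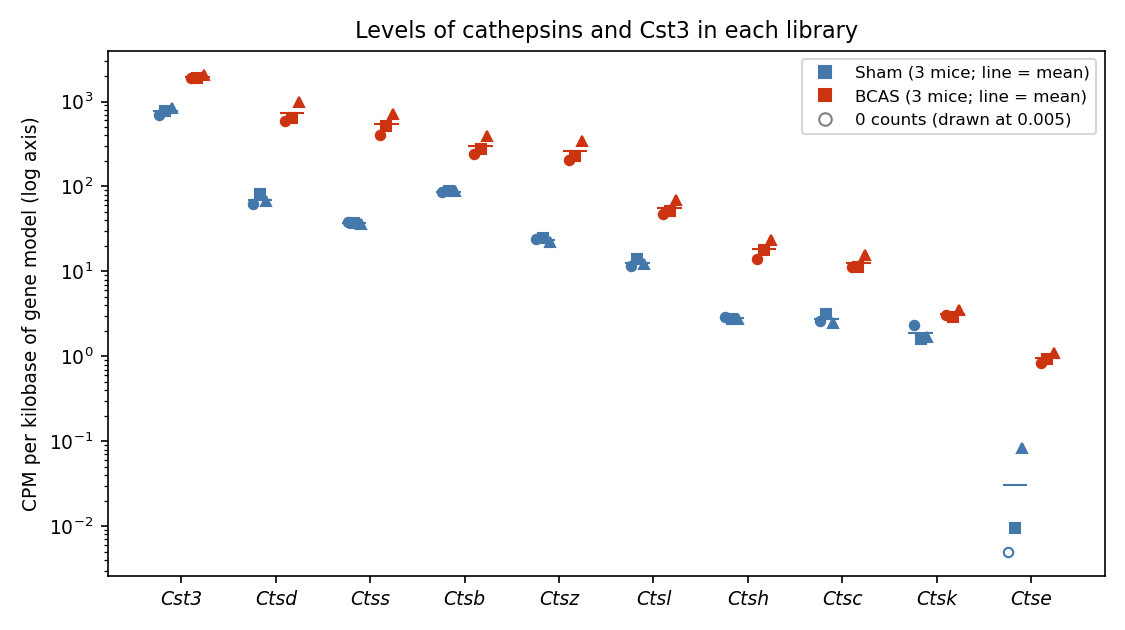
Level of each gene in each library, as CPM per kilobase of gene model on a log axis; blue points are sham mice, red points BCAS mice, circles, squares and triangles are mice 1, 2 and 3, and lines are means (n = 3). Every red point lies above every blue point of the same gene, and the largest gap among well-expressed genes is that of Ctss.

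The start regions of 4 cathepsins are shown first. The stretches come from RefSeq (GRCm38.p6), which held a promoter window for 7 of the 10 genes. A window covers 250 bases before and 50 bases after a transcription start. Each was searched on both strands for GAGGAAGT (the core of a site bound by PU.1, the lineage factor of myeloid cells), TCACGTG (the core of the CLEAR site bound by TFEB and its relatives, which contains the E-box CACGTG) and TTCNNTTTC (part of an ISRE, bound by interferon regulatory factors). The shares of all 32851 windows with a match were 3.20% for GAGGAAGT, 3.77% for TCACGTG, 7.15% for CACGTG and 8.56% for TTCNNTTTC. Among the 7 member windows, GAGGAAGT was found in 2 (Ctss and Ctsc), TCACGTG in 1 (Ctsd), CACGTG in 2 (Ctsd and Ctsl) and TTCNNTTTC in 1 (Ctss). No listed motif was found in the windows of Ctsk, Ctsz and Cst3. A match is a run of letters and not a tested binding site. Ctss and Ctsk lie next to each other on chromosome 3 and are shown to compare neighbours, Ctsc for the motif it shares with Ctss, and Ctsd for its CLEAR letters. Each sequence runs 5′ to 3′ on the strand of its gene, and capitals mark motif matches.
Ctss, chr3:95526636-95526791, plus strand, from position -150 to 6 around the start site: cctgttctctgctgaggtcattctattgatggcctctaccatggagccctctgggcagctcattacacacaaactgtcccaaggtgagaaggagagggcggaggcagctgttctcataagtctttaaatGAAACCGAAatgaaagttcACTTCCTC
Ctsk, chr3:95499060-95499209, plus strand, position -150 to -1: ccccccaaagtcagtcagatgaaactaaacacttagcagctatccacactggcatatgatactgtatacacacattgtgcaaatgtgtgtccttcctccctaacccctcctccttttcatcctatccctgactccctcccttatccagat
Ctsc, chr7:88277925-88278084, plus strand, position -160 to -1: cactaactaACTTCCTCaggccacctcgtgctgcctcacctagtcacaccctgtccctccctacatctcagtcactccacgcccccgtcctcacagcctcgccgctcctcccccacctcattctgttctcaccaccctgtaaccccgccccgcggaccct
Ctsd, chr7:142388048-142388077, minus strand, the first 30 bases of the window: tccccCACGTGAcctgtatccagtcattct
Ctsd, chr7:142387908-142387937, minus strand, 30 bases nearer the start site: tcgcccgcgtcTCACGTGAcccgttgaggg

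In the Ctss stretch, the GAGGAAGT letters lie on the opposite strand and begin at position -2, so they span the start site, and the TTCNNTTTC letters on the opposite strand begin at -21. In Ctsc the same GAGGAAGT letters begin at -151. The RefSeq start of Ctsd lies 211 bases inside the gene model counted by the authors, so the second Ctsd stretch is exonic in a longer transcript of that model.

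Ctss encodes cathepsin S, which trims the invariant chain of MHC class II in antigen-presenting cells and stays active at neutral pH. It lies on chromosome 3 of mm10 from 95526786 to 95556403 (ENSMUSG00000038642.10). Its CPM was 52.2, 50.3 and 49.1 in sham mice 1 to 3 and 548, 699 and 970 in BCAS mice 1 to 3. The sham mice were nearly level with each other, and the lowest BCAS mouse was 10.5-fold above the highest sham mouse. The log2 fold change was 3.87 (SE 0.20; adjusted P = 1.16e-05 in edgeR), the largest among the 9 members with more than a few counts in sham mice.

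Ctsz, which encodes cathepsin Z (also called X), a carboxypeptidase, lies on chromosome 2 from 174427493 to 174439039. It had 34.6, 35.3 and 31.7 CPM in sham mice and 298, 333 and 499 CPM in BCAS mice. Its log2 fold change was 3.48 (SE 0.19; adjusted P = 1.36e-05 in edgeR). As for Ctss, the spread between BCAS mice was wide (coefficient of variation 28.5%) and that between sham mice narrow (5.65%).

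Among the cysteine cathepsins with an intermediate change, Ctsh encodes an aminopeptidase, cathepsin H (chromosome 9, 90054152 to 90076089). It had 13.02, 12.3 and 12.4 CPM in sham mice and 63.5, 79.8 and 106 CPM in BCAS mice. Its log2 fold change was 2.72 (SE 0.17; adjusted P = 2.03e-05 in edgeR). Ctsc encodes dipeptidyl peptidase 1, which activates serine proteases of leukocyte granules (chromosome 7, 88278085 to 88310888). Its CPM was 15.2, 18.4 and 14.4 in sham mice and 65.4, 65.7 and 90.4 in BCAS mice. Its log2 fold change was 2.21 (SE 0.15; adjusted P = 2.73e-05 in edgeR). Ctsl encodes cathepsin L, a broad endopeptidase (chromosome 13, 64359337 to 64370890). It had 75.1, 91.9 and 80.03 CPM in sham mice and 311, 333 and 453 CPM in BCAS mice. The log2 fold change of Ctsl was 2.15 (SE 0.15; adjusted P = 2.75e-05 in edgeR). Of the Ctsl gene model, 26.85% is shared with Gm47123 on the opposite strand and 6.09% with Gm49230 on the same strand. Strand was not used in the counting, so reads on these bases went to no gene, and both partners had 0 counts in every library. In each of these 3 genes BCAS mouse 3 stood above the other BCAS mice, and no sham mouse came near the lowest BCAS mouse.

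Ctsb encodes cathepsin B, which acts as an endopeptidase and removes dipeptides from the carboxyl end. It lies on chromosome 14 from 63122462 to 63145923. In sham mice it had 515, 533 and 534 CPM, and in BCAS mice 1472, 1675 and 2346 CPM. Its log2 fold change of 1.80 (SE 0.17; adjusted P = 1.34e-04 in edgeR) was the smallest among the 8 DEGs of the 9 cathepsins. Ctsb overlaps Fdft1, a gene of cholesterol synthesis on the opposite strand, over 12.8% of the Ctsb gene model. Fdft1 went the other way, with 82.8 to 94.6 CPM among sham mice and 46.4 to 59.1 CPM among BCAS mice.

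Ctsk encodes cathepsin K, the collagen-degrading enzyme of osteoclasts, and lies upstream of Ctss on the same strand (chromosome 3, 95499256 to 95509362). Its CPM was 3.57, 2.39 and 2.54 in sham mice and 4.59, 4.44 and 5.32 in BCAS mice. The groups lay close together, with the lowest BCAS mouse 1.24-fold above the highest sham mouse. The log2 fold change was 0.75 (SE 0.21; adjusted P = 0.0268 in edgeR), and Ctsk was the only cathepsin of the 9 that was not a DEG. The call was lost without sham mouse 2 (adjusted P = 0.0938), without sham mouse 3 (0.0965), without BCAS mouse 3 (0.0821) and with the replicate number as a block (0.0507). Among 5 genes of meningeal fibroblasts, a cell type that also makes collagen, 3 passed as higher (18.0% of all tested genes did), including Col1a1 with a log2 fold change of 2.13, and none passed as lower. Their part in the Ctsk result was not tested. The log2 ratio of Ctss to Ctsk ran from 3.85 to 4.36 among sham mice and from 6.88 to 7.49 among BCAS mice, a difference between the group means of 3.07.

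Ctsd encodes cathepsin D, the main aspartic protease of the lysosome, whose loss causes a neuronal ceroid lipofuscinosis. It lies on chromosome 7 from 142375911 to 142388038. Its CPM was 146, 191 and 157 in sham mice and 1379, 1508 and 2302 in BCAS mice. The log2 fold change was 3.39 (SE 0.22; adjusted P = 2.05e-05 in edgeR). Of its gene model, 34.4% is shared with the exons of Gm49369 on the same strand. Reads on the shared part were assigned to neither gene, and Gm49369 had 0 counts in all 6 libraries, so the count of Ctsd is a lower limit.

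Ctse encodes cathepsin E, an aspartic protease of immune cells and stomach epithelium that is found outside the classical lysosome (chromosome 1, 131638306 to 131675505). Sham mice had 0, 1 and 9 counts of it, BCAS mice 85, 90 and 109. The groups were far apart, but the sham level rests on 10 counts in all. The log2 fold change was 4.89 (SE 0.69; adjusted P = 0.00107 in edgeR), and it was 7.34 without sham mouse 3. The lowest BCAS mouse was 9.97-fold above the highest sham mouse in CPM. Ctse entered the test through its BCAS counts.

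Cst3 (chromosome 2, 148871722 to 148875692) had the highest CPM per kilobase of the 10 genes in every library. Its CPM was 867, 979 and 1065 in sham mice and 2425, 2398 and 2626 in BCAS mice. BCAS mice were close to each other for this gene, with a coefficient of variation of 5.02% against 25.0% for Ctsb and 28.9% for Ctss. The log2 fold change of Cst3 was 1.36 (SE 0.13; adjusted P = 1.21e-04 in edgeR). Of the 8 astrocyte markers, 7 passed as higher, and the sum of all 8 ran from 4479 to 4759 CPM among sham mice and from 9554 to 10077 CPM among BCAS mice. Much of that rise lay in Gfap, with means of 375 CPM in sham mice and 3678 CPM in BCAS mice. The median log2 fold change of the 8 markers was 0.74. Their part in the Cst3 result was not tested. Choroid plexus also makes cystatin C. The 5 choroid plexus markers varied widely within each group, with sums between 69.8 and 4078 CPM among sham mice and between 40.3 and 5918 CPM among BCAS mice, and their part in the Cst3 result was not tested.

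**Figure D2:**
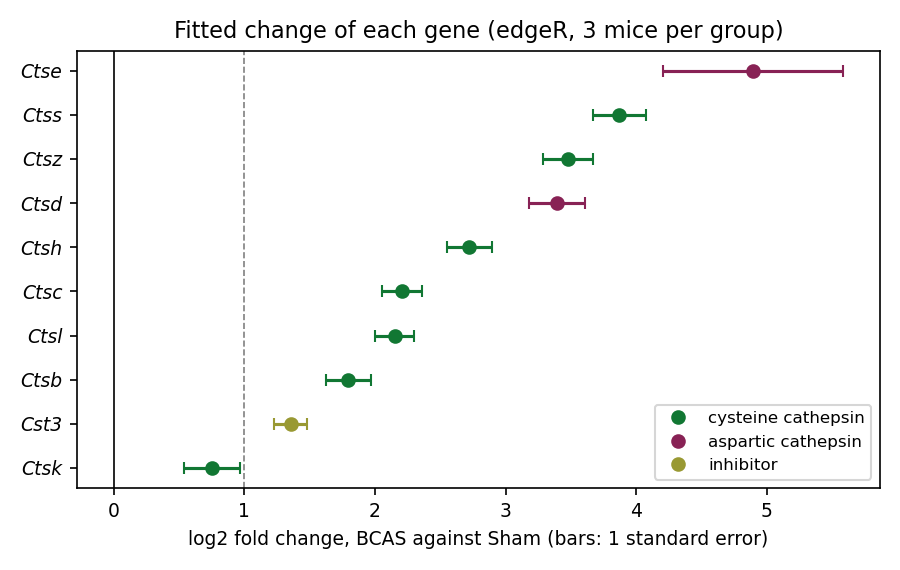
Fitted log2 fold change of each gene, BCAS against sham, with bars of 1 standard error (edgeR, n = 3 mice per group); the dashed line marks a log2 fold change of 1. Ctse, Ctss, Ctsz and Ctsd lie above 3, and Ctsk alone lies below 1.

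The order of the levels was then compared, as CPM per kilobase. In sham mice the means were 87.1 for Ctsb, 70.1 for Ctsd, 37.2 for Ctss, 23.5 for Ctsz, 12.7 for Ctsl, 2.79 for Ctsh, 2.75 for Ctsc, 1.87 for Ctsk and 0.0307 for Ctse, beside 766 for Cst3. Of these neighbours, Ctsh and Ctsc overlapped between mice, while the others did not. In BCAS mice Ctsd came first with 736 ± 213 (SD, n = 3), followed by Ctss with 544 ± 158, Ctsb with 303 ± 75.6, Ctsz with 261 ± 74.5 and Ctsl with 56.4 ± 11.8. Ctsh, Ctsc, Ctsk and Ctse followed with 18.5, 12.7, 3.16 and 0.956. The ranges of Ctsd and Ctss overlapped, as did those of Ctsb and Ctsz and of Ctsh and Ctsc, but within each of the 3 BCAS mice the order was the same. A level per kilobase depends on the gene model, which joins the exons of all transcripts.

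The make-up of the cathepsin transcripts changed with the groups. Ctsb held 34.9% to 37.9% of the summed cathepsin level of a sham mouse and 15.3% to 16.0% of that of a BCAS mouse. The share of Ctss ran from 14.7% to 16.8% without stenosis and from 26.6% to 29.4% with it. Ctsd held 27.1% to 32.2% in the sham group and 36.7% to 38.6% in the BCAS group, and Ctsz 9.46% to 10.5% and 13.2% to 13.6%. The share of Ctsl was 5.32% ± 0.279 in sham mice against 2.95% ± 0.206 with BCAS (SD, n = 3), although its CPM rose. The shares of BCAS mice were close together although the summed level of BCAS mouse 3 was 1.67-fold that of BCAS mouse 1. Where exonic bases shared with other genes were left out of the length, a setting chosen after seeing the overlaps, Ctsd had a mean share of 36.2% in the sham group and 46.7% in the BCAS group. Ctsb then held 34.1% and 14.6%, so that the order of Ctsb and Ctsd in sham mice depends on the length used.

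**Figure D3:**
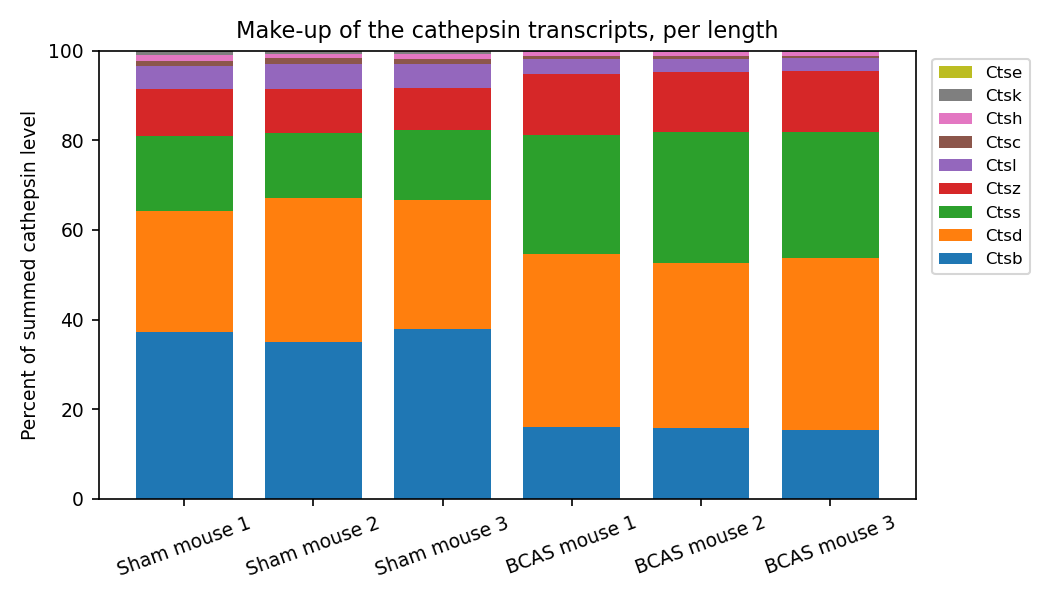
Share of each cathepsin in the summed cathepsin level of each library, in percent of CPM per kilobase; each bar is 1 mouse. Ctsb (blue, bottom) takes 34.9% to 37.9% of the sham bars and 15.3% to 16.0% of the BCAS bars, where Ctsd and Ctss together take most of the bar.

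Next, the proteases were set against the inhibitor. The summed level of the 9 cathepsins was 238 ± 12.6 CPM per kilobase in sham mice and 1936 ± 537 in BCAS mice (SD, n = 3), an 8.13-fold difference, while Cst3 differed 2.56-fold. The level of the cathepsins per unit of Cst3 was 0.334, 0.326 and 0.276 in sham mice and 0.792, 0.923 and 1.23 in BCAS mice. Cystatin C acts on cysteine cathepsins, and how strongly it blocks each of the 7 was not examined here. For these 7 alone, the level per Cst3 unit was 0.244, 0.221 and 0.197 in sham mice and 0.486, 0.584 and 0.753 in BCAS mice. In both ratios the groups did not overlap. Both are ratios of transcripts and not of proteins. As a score over chosen genes, they were given no test.

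Gene by gene, the log2 CPM of a cathepsin minus that of Cst3 was higher in BCAS mice without overlap for 8 of the 9 cathepsins. These 8 include Ctse, which entered the test through its BCAS counts. The share of all tested genes that do the same relative to Cst3 was not computed. The difference between the groups was 2.47 for Ctss, followed by Ctsz (2.08), Ctsd (2.004), Ctsh (1.33), Ctsc (0.84), Ctsl (0.78) and Ctsb (0.41). For Ctse it was 3.29, a value that depends on the prior count of 2, since sham mice had 0, 1 and 9 counts. Ctsk went the other way, with a difference of -0.60, and was lower relative to Cst3 in all 3 BCAS mice than in any sham mouse. A total of 20 such ratios was computed. With 3 mice per group, the smallest two-sided P that an exact permutation can give is 0.1, so no ratio could pass, and the lowest exact permutation P after Benjamini-Hochberg adjustment was 0.105.

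Relative to the mean log2 CPM of the 10 microglia and macrophage markers, which was 3.02 higher in BCAS mice, the cathepsins went in different directions. Ctss was higher by 0.81, Ctsz by 0.42 and Ctsd by 0.34, without overlap between the groups. The difference was negative for Ctsk (-2.26), Ctsb (-1.25), Ctsl (-0.89), Ctsc (-0.83) and Ctsh (-0.34), also without overlap. For Ctsd the ratio was 2.69, 3.13 and 2.74 in sham mice 1 to 3 and 3.17, 3.22 and 3.19 in BCAS mice. Sham mouse 2 thus lay close to BCAS mouse 1. Ctsd and these markers kept nearly the same proportion in the 3 BCAS mice. For Ctse the difference, which again depends on the prior count, was 1.63, with sham mouse 3 at -6.18 next to BCAS mouse 3 at -6.15. The log2 ratio of Ctse to Ctsd, the aspartic pair, overlapped between the groups, from -11.22 to -8.92 among sham mice and from -9.34 to -8.95 among BCAS mice (exact permutation P = 0.4). The choice of markers matters here, since their own log2 fold changes ran from 1.54 (P2ry12) to 4.33 (Trem2), a range that holds those of Ctsb, Ctsc, Ctsh, Ctsl, Ctsz, Ctsd and Ctss.

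**Figure D4:**
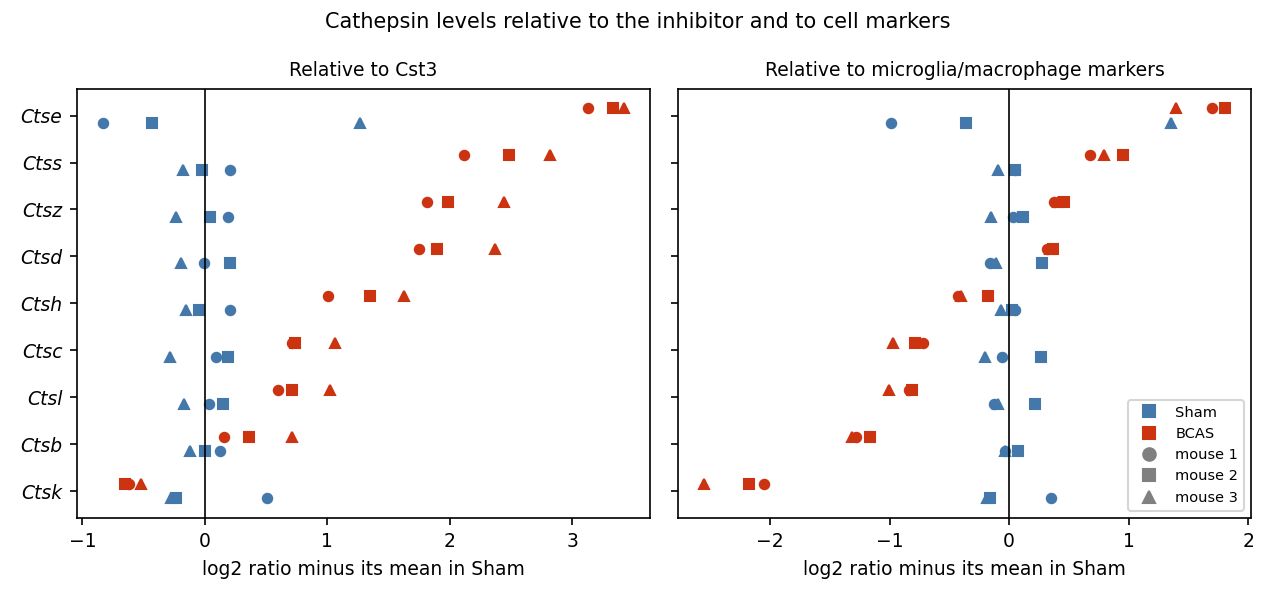
Log2 ratio of each cathepsin to Cst3 (left) and to the mean of 10 microglia and macrophage markers (right), each shown minus its mean in sham mice; points are mice (blue sham, red BCAS). On the left 8 cathepsins shift to the right and Ctsk to the left, and on the right Ctss, Ctsz and Ctsd lie above 0 in all BCAS mice while Ctsb, Ctsc, Ctsh, Ctsk and Ctsl lie below 0.

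The genes with the most similar profile were listed by the root-mean-square difference of centred log2 CPM over the 6 libraries, as a description. Nearest to Ctsb was Ctsa (0.0461), to Ctsc Man2b1 (0.0300), to Ctsl Naglu (0.0462), to Ctsh Gpr34 (0.0526), to Ctss Csf2rb (0.0599), to Ctsz Tlr7 (0.0397), to Ctsd Ikzf1 (0.0680) and to Cst3 Dapp1 (0.0454). Ctsk was nearest to Gm45869 (0.0567). Other lysosomal genes came close behind for Ctsl, with the cholesterol carrier Npc2 (0.0494) and the mannosidase Man2b1 (0.0571), while Ctss had the complement gene C1qa (0.0799) among its 3 nearest. Within the family, Ctsl was among the 3 nearest of Ctsc (0.0685). No gene was close to Ctse, where the smallest difference was 0.294 (Cxcr6).

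The remaining genes of the system showed smaller changes, with exceptions. Of 5 further cathepsins, 4 were tested and all 4 passed as higher, or 3 of 3 without Ctsw, beside 18.0% of all tested genes. Ctsa, a serine carboxypeptidase that shields β-galactosidase and neuraminidase in the lysosome, had 84.2 ± 2.58 CPM in sham mice against 287 ± 55.5 CPM with BCAS (SD, n = 3 mice), and its fitted log2 change was 1.77 (adjusted P = 3.61e-05 in edgeR). Ctso and Ctsf, widely made cysteine cathepsins, rose by 0.80 and 0.37 on the log2 scale. Ctsw, a cathepsin of cytotoxic lymphocytes, had 1, 7 and 20 counts in the sham libraries against 30, 77 and 60 in the BCAS libraries, and its log2 fold change was 2.69 (adjusted P = 0.0210 in edgeR). Ctsw entered the test through its BCAS counts, as did Cd2, Cd3d, Cd3e and Cd3g among the T cell markers. Of the 5 T cell markers, 4 passed as higher, beside 18.0% of all tested genes. Without Cd2, Cd3d, Cd3e and Cd3g only Trac was left, and it passed as higher. The sum of all 5 ran from 0.649 to 1.72 CPM among sham mice and from 5.13 to 5.60 CPM among BCAS mice. Their part in the Ctsw result was not tested. Ctsg, a serine protease of neutrophil granules, had 0 counts in all libraries, as did all 9 rodent placental cathepsins (Cts3, Cts6, Cts7, Cts8, Ctsj, Ctsll3, Ctsm, Ctsq and Ctsr). A count of 0 allows up to 3 counts, or 0.0875 to 0.0995 CPM, counting error only and with counts taken as independent. Each mate was counted alone, so 1 read pair can give more than 1 count and the true limit can be higher.

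Of 16 other cystatins and stefins, 14 were matched, 9 of them had 0 counts throughout and 3 were tested. Cst7 encodes cystatin F, an inhibitor of leukocytes that is sorted to lysosomes. The sham libraries held 3, 4 and 8 counts of it and the BCAS libraries 5623, 5605 and 7602, and its log2 fold change of 10.37 (adjusted P = 2.48e-07 in edgeR) rests on these few sham counts. Cst7, too, entered the test only through its BCAS counts. Its level in BCAS mice was 204 ± 38.2 CPM per kilobase (SD, n = 3), beside 1961 ± 98.5 for Cst3. Cstb, which encodes the cytosolic inhibitor cystatin B, had a log2 fold change of 0.57 (edgeR adjusted P = 0.0254). Cst6 (0.18, edgeR adjusted P = 0.698) did not pass.

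Of 13 genes listed under processing, sorting and lysosomal transcription, 10 passed as higher, 1 as lower and 2 did not pass. Over all tested genes, 18.0% passed as higher and 13.2% as lower. The median log2 fold change of the 13 was 0.58. Lgmn encodes legumain, which cuts precursors of cathepsins B, H and L. Its level was 90.9 ± 6.65 CPM in sham mice against 330 ± 106 CPM with BCAS (SD, n = 3 mice), and its fitted log2 change was 1.86 (adjusted P = 2.08e-04 in edgeR). Grn encodes progranulin, which binds procathepsin D with prosaposin, and rose by 2.84 on the log2 scale. The list also holds Prdx6, the gene of a peroxiredoxin, which rose by 1.42. The transcription factors Tfeb (0.83), Mitf (0.82) and Tfe3 (0.58) passed with changes below the DEG threshold. So did the mannose 6-phosphate receptors Igf2r (0.41) and M6pr (0.27), the uncovering enzyme Nagpa (0.99) and Psap (0.42). Gnptab (0.01, adjusted P = 0.942) and Gnptg (0.06, adjusted P = 0.548), subunits of the enzyme that begins the mannose 6-phosphate tag, did not pass in edgeR. Sort1, the sortilin receptor, was lower in BCAS mice, with a log2 fold change of -0.43 (edgeR adjusted P = 0.0205).

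**Figure D5:**
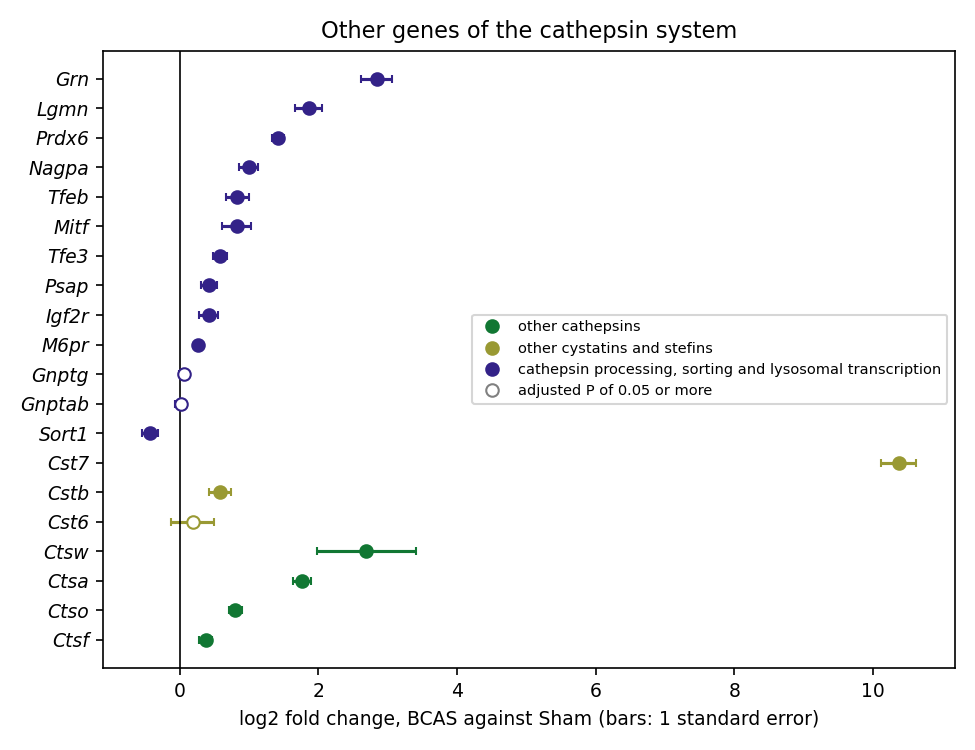
Fitted log2 fold change of the tested genes of 3 lists, BCAS against sham, with bars of 1 standard error (edgeR, n = 3 mice per group); open points did not pass an adjusted P of 0.05. Cst7 lies beyond all other genes shown, Grn, Ctsw, Lgmn, Ctsa and Prdx6 lie above 1, and Sort1 is the only filled point below 0.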

How the data were processed

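Hippocampal RNA from 3 sham and 3 BCAS mice was sequenced as paired-end reads. After trimming, the authors mapped reads to mm10 with HISAT2 and counted them per gene. They deposited the raw counts of each library without normalization, with the exonic length of every gene model. Per the file headers, featureCounts 2.0.3 was used (the processing notes name 1.6.3), each mate was counted alone, no strand setting was used, and multi-mapping or ambiguous reads were left out. Of 54752 genes, 54723 matched a symbol.

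Groups came from the sample titles. The 10 genes, the gene lists and the motifs were chosen with earlier results of these data known. Counts kept by filterByExpr were normalized by TMM and tested with edgeR 4.0.16 in R 4.3.3, with Benjamini-Hochberg adjustment over 18617 genes. Log2 CPM used a prior count of 2. DESeq2 1.42.0, limma-voom (limma 3.58.1), RLE, library totals, other filters, glmTreat, halved counts, thinned counts, the replicate block and leaving out each mouse were the alternatives. The fits were tested on simulated data. Named genes were the 10 members, genes of the lists and the nearest profiles. No set test was run. Protein sequences were not used here, and 1 motif and 1 marker list are not reported here. Totals of 29652456 to 35607098 counts set the precision, and the limits given cover counting error only.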

Additional observations from a re-analysis of the deposited data

How the results depend on the processing

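The number of cathepsins higher in BCAS mice was 9 under every alternative that kept all mice, except for 8 under glmTreat and the replicate block, and it was 8 to 9 with each mouse left out. The cathepsin DEGs numbered 8 under each of the 16 alternatives, and none was lower in BCAS mice under any. These counts include Ctse, which entered the test through its BCAS counts. Over all genes, those that passed as higher numbered 804 of 18617 under glmTreat and 2782 of 18617 with the replicate block. Under the other alternatives they ran from 2453 of 19051 without sham mouse 1 to 3859 of 18617 with library totals. The share of DEGs over all genes was not computed per alternative. Ctsk accounts for every cathepsin call lost. Under glmTreat with a log2 threshold of 1, Cst3 kept its value of 1.36 but no longer passed (adjusted P = 0.0520), and its log2 fold change otherwise ran from 1.28 to 1.43. The replicate numbers of the labels are not said to pair the mice. Residual correlations between mice of the same number were 0.036, -0.314 and -0.158, which cannot decide the question with 3 mice per group. With the replicate block, Ctsk had a log2 fold change of 0.77 (adjusted P = 0.0507), Cst3 one of 1.36, and no other call among the 10 genes changed. The block used the numbers of the sample titles, while the headers of the count columns number the BCAS libraries 2 to 4. Without division by gene length, the summed cathepsin level differed 5.85-fold and its ratio to Cst3 2.26-fold, in place of 8.13-fold and 3.14-fold. The cause was not tested. With each mouse left out these ran from 6.86 to 9.01 and from 2.74 to 3.44. Depth limits Ctse in sham mice, which had 10 counts in all.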
